A study of Saccharomyces cerevisiae with 4 samples.

Results

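Autophagy genes of budding yeast (Saccharomyces cerevisiae) were compared between calorie-restricted and non-restricted cultures. They were the rows of the deposited expression table named ATG followed by a number, 28 genes, with VPS30, VPS34 and VPS15, which encode 3 subunits of the lipid kinase that acts early in the process. That gave 31 of the table's 6720 gene rows. All 31 passed the filter of a mean of 1 FPKM, so all were tested. The unit, FPKM, counts fragments per kilobase of a gene and is scaled to the number mapped in each library. The calorie-restricted group (CR) was wild type grown in 0.05% glucose, and the non-restricted group (NR) was wild type grown in 2% glucose. Both groups grew in synthetic complete medium at 30 °C, with 2 biological replicates, A and B, in each. The labels name neither the strain background nor when, or how dense, the cultures were harvested.

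In autophagy a cell wraps part of its cytoplasm in a new double membrane, the autophagosome, and delivers it to the vacuole, the lytic compartment of yeast, for breakdown. The Atg1 kinase complex starts the process when the TORC1 kinase is inactive, a lipid kinase complex and Atg9 vesicles build the membrane, and the ubiquitin-like protein Atg8 is joined to lipid in it. Receptors that bind both a cargo and Atg8 make the process selective for mitochondria, peroxisomes, endoplasmic reticulum or vacuolar enzymes. In growing yeast the same machinery runs the cytoplasm-to-vacuole targeting (Cvt) pathway, which carries hydrolases to the vacuole.

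The libraries were not equal. Rows without a gene ID made up 87.2% of summed FPKM in CR B, against 27.4% in CR A, 34.0% in NR A and 29.9% in NR B. Over gene rows the median FPKM was 57.6 in CR A, 52.8 in CR B, 52.6 in NR A and 48.6 in NR B. Read counts were not used here, so the depth behind each value is unknown. Over the genes tested, the replicate SD of log2(FPKM + 1) was 0.46 in CR and 0.27 in NR. The test was limma's, two-sided, for each gene's log2(FPKM + 1), and a gene was called where its Benjamini-Hochberg adjusted p over 6355 genes was under 0.05. Each log2 fold is CR minus NR of log2(FPKM + 1), a scale that shrinks the folds of low genes. With 2 libraries against 2 the smallest p an exact two-sided permutation test can give is 0.333.

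Of the 31 autophagy genes, 9 rose in CR (29.0%) and 1 fell (3.23%). Over all genes tested, 17.7% were called higher (1126) and 13.2% lower (836), a split that turned to 964 higher and 1171 lower when libraries were scaled to equal medians. In either direction 10 of the 31 were called, against 30.9% of all genes, so the share of autophagy genes called was near the background. Both CR libraries lay above both NR libraries for 21 of the 31, where 39.2% of all genes did so, and below them for 1, where 33.8% of all genes did so. The median log2 fold was 0.59 for the autophagy genes and 0.06 for all genes tested. FPKM is a share of a library's RNA from many cells, so fewer cells with a transcript and less transcript per cell cannot be told apart. The calls needed both NR libraries. Without NR A limma called 0 of the 31, with 8 at an unadjusted p under 0.05, and without NR B it called ATG34 alone.

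**Figure D1:**
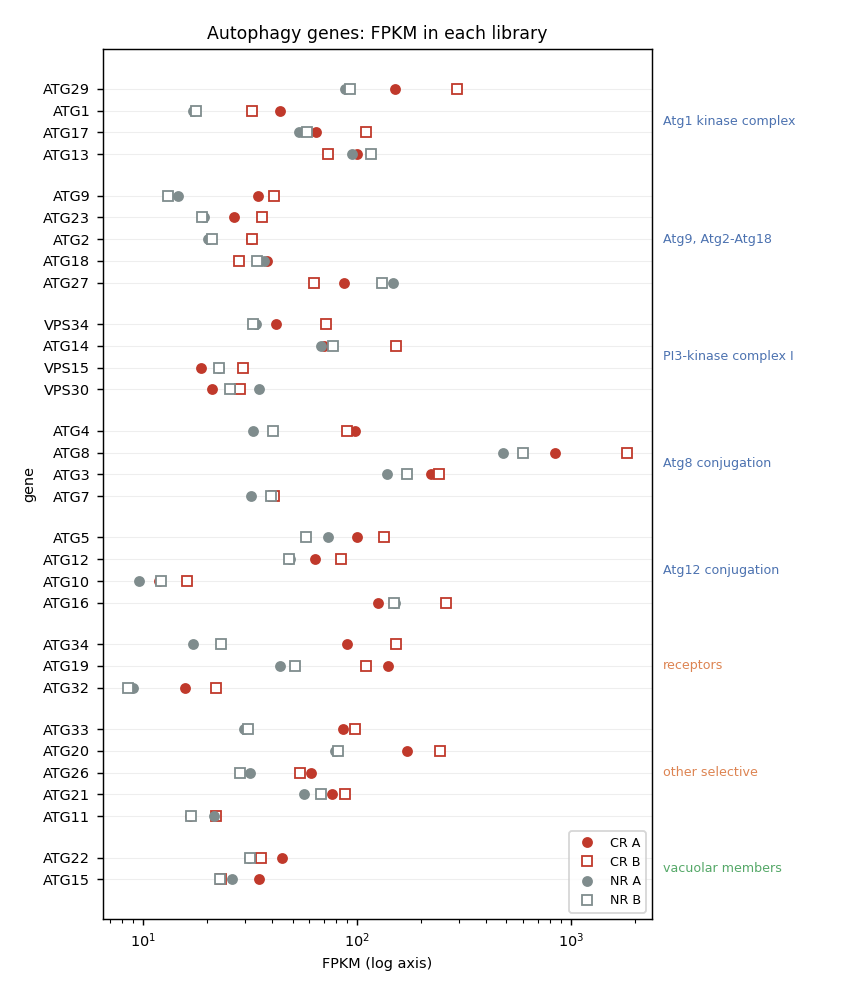
FPKM (log axis) of the 31 autophagy genes in the 4 libraries, grouped by role, with CR in red and NR in grey, replicate A as filled circles and replicate B as open squares. ATG8 has the highest value in every library. Both CR libraries lie above both NR libraries for 21 genes (39.2% of all genes tested). ATG27 is the 1 gene with both CR libraries below (33.8% of all genes tested).

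All 3 receptors named ATG in the table rose, where 17.7% of all genes were called higher, with a median log2 fold of 1.37. ATG34 encodes the receptor that carries alpha-mannosidase to the vacuole during starvation, and it lies on chromosome XV, 165714 to 166952, plus strand, in R64 coordinates, as 1 coding exon. It had 89.7 and 153 FPKM in CR A and CR B, against 17.1 and 23.3 FPKM in the NR libraries. The lower CR library was thus well above the higher NR library. The change was 5.64-fold, a log2 fold of 2.49 (SE 0.32, adjusted p = 0.0088), and by log2 fold ATG34 ranked highest of the 31. By level it ranked 10 and 6 of 31 in CR A and CR B, against 28 and 22 in NR A and NR B.

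ATG19 encodes the receptor of the Cvt pathway, a paralog of ATG34 that lies 1774 nt downstream of it on the same strand (XV, 168727 to 169974). It had 140.3 and 110.1 FPKM in CR A and CR B, against 43.8 and 51.3 FPKM in the NR libraries, which gave 1.37 on the log2 scale (SE 0.22, adjusted p = 0.014). The groups did not overlap here either. The ratio of ATG34 to ATG19 was 0.640 and 1.39 in CR A and CR B, against 0.391 and 0.453 in NR A and NR B. ATG34 was therefore the more abundant paralog in CR B, and the less abundant in CR A and in both NR libraries. The row YOL083C-A overlaps ATG34 and had 8.85 and 12.6 FPKM in CR, against 12.0 and 16.7 FPKM in NR. The sources used here do not say how overlapping fragments and strand were counted.

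Of the genes on either side of the pair PHM7 rose and IRA2 was not called. PHM7, which ends 382 nt before the ATG34 start codon on the same strand, had 188 and 164 FPKM in CR, against 21.8 and 21.5 FPKM in NR, and 2.96 as log2 fold (SE 0.19, adjusted p = 0.0027). IRA2, downstream of ATG19, encodes a GTPase-activating protein of Ras and had 92.1 and 116 FPKM in CR, against 64.1 and 66.8 FPKM in NR (log2 fold 0.65, adjusted p = 0.069, not called). Upstream of PHM7, YOL085C rose (log2 fold 2.05, SE 0.28, adjusted p = 0.0097). YOL085W-A, a row that overlaps it and is not in RefSeq, rose too (log2 fold 4.22, SE 0.71, adjusted p = 0.015). Its CR libraries lay far apart, at 732 FPKM in CR A and 3390 FPKM in CR B, against 91.41 and 76.95 FPKM in NR. YOL083C-A, inside the stretch, was not called (log2 fold -0.39, adjusted p = 0.33). These neighbours were looked up after the values of ATG34 and ATG19 were seen.

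**Figure D2:**
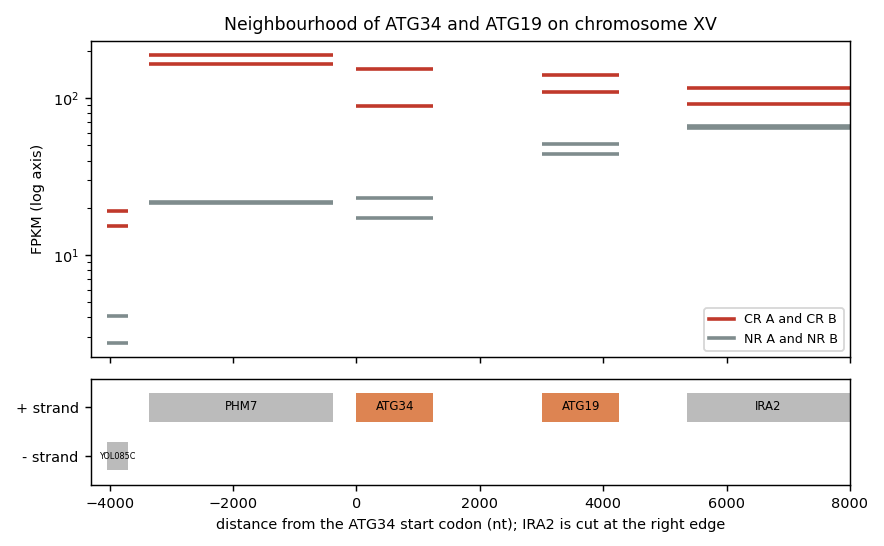
Upper panel, FPKM (log axis) of the genes around ATG34 and ATG19, a line over the gene for each library, with CR in red and NR in grey. Lower panel, the genes by strand against distance in nt from the ATG34 start codon, with the receptor genes in orange and only genes listed in RefSeq drawn. The CR lines lie above the NR lines at every gene drawn.

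The promoters of ATG34 and ATG19 are shown because these neighbouring receptor genes rose together, and those of ATG9 and ATG8 because these genes are known targets of the repressors Pho23 and Ume6. Each is the 300 nt before the start codon on the gene's strand, read from RefSeq build R64. The windows are chrXV:165414-165713 (plus) for ATG34, chrXV:168427-168726 (plus) for ATG19, chrIV:184625-184924 (plus) for ATG9 and chrII:80732-81031 (minus) for ATG8. Capitals mark, on either strand, GCCGCC (core of the URS1 element bound by Ume6), AGGGG (stress response element of Msn2 and Msn4, also bound by Rph1), TGACTC (Gcn4) and GATAAG (Gln3 and Gat1).
ATG34: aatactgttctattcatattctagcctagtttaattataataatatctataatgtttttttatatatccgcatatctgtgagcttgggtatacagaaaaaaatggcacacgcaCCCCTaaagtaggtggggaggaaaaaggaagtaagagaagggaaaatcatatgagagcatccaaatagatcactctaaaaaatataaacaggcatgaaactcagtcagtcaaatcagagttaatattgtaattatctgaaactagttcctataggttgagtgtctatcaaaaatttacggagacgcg
ATG19: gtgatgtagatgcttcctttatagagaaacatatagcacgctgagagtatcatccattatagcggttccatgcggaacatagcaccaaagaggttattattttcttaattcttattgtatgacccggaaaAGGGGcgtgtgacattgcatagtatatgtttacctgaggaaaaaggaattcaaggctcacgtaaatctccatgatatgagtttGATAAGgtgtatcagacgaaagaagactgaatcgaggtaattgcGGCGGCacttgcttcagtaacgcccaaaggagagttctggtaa
ATG9: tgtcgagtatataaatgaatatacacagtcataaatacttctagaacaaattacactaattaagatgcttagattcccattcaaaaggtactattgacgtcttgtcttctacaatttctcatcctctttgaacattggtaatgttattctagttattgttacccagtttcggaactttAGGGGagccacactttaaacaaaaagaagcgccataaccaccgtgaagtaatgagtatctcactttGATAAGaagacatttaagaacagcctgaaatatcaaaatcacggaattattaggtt
ATG8: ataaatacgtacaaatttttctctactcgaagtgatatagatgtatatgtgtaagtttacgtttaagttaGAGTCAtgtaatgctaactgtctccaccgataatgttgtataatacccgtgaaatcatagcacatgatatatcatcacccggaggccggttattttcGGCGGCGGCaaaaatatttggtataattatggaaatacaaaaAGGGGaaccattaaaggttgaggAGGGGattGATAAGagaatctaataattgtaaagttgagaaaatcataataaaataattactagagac
The ATG34 window held a single match, AGGGG on the minus strand, with its first base 187 nt before the start codon. The ATG19 window held AGGGG as well as GATAAG and the URS1 core, and the ATG9 window AGGGG and GATAAG. All 4 motifs occurred in the ATG8 window, with GCCGCC matched at a pair of overlapping positions 133 and 130 nt before the start codon and no overlap between different motifs. That window also overlaps the row YBL077W, which is not in RefSeq.

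Over all 31 autophagy genes, AGGGG was present in the 300-nt window of 9 (29.0%), against 22.2% of 6001 protein-coding genes. Of the 9 genes that rose 6 held it, ATG9, ATG19, ATG20, ATG26, ATG32 and ATG34, while the GATA motif was in 5, the Gcn4 motif in 1 and the URS1 core in 1. GATAAG was in 10 of the 31 (32.3%), against 14.7% of all, and TGACTC in 5 (16.1%), against 7.77% of all. GCCGCC was in 2, ATG8 and ATG19 (6.45%), against 5.20% of all. The motifs were chosen after the values were seen, and a match to so few letters is a description of the window only.

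ATG32 encodes the receptor of mitophagy, a protein of the mitochondrial outer membrane (IX, 74184 to 75773, minus strand). It had 15.7 and 21.9 FPKM in CR A and CR B, against 8.95 and 8.50 FPKM in the NR libraries. Its groups did not overlap, although it stayed among the lowest of the 31, at rank 30 in both CR libraries and at rank 31 in both NR libraries. The log2 fold was 1.01 (SE 0.25, adjusted p = 0.036), and the call was lost when the library medians were equalized or low values were not filtered.

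Of the 5 other factors of selective autophagy 3 rose (60.0%, against 17.7% of all genes). ATG33, which encodes a second mitochondrial outer membrane protein needed for mitophagy, had 86.1 and 98.1 FPKM in CR, against 29.6 and 31.0 FPKM in NR. It had the smallest adjusted p of the 31 (log2 fold 1.57, SE 0.19, adjusted p = 0.0077). ATG20, a sorting nexin gene of the Cvt pathway and of endosomal recycling, had 171 and 244 FPKM in CR, against 79.2 and 82.0 FPKM in NR (log2 fold 1.33, SE 0.25, adjusted p = 0.018). ATG26 encodes a sterol glucosyltransferase that peroxisome breakdown requires in Pichia pastoris. It had 61.2 and 54.0 FPKM in CR, against 31.5 and 28.4 FPKM in NR (log2 fold 0.92, SE 0.20, adjusted p = 0.025), a call lost with no filter on low values (adjusted p = 0.0503). For these 3 genes, too, both CR libraries lay above both NR libraries, where 39.2% of all genes did so.

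The scaffold gene ATG11, whose product links receptors to the Atg1 kinase, was not among them. It had 16.7 and 22.0 FPKM in CR, against 21.4 and 16.7 FPKM in NR (log2 fold 0.02, SE 0.25, adjusted p = 0.97), and its groups overlapped. ATG21, a phosphoinositide-binding protein gene of the Cvt pathway, had a log2 fold of 0.40 (adjusted p = 0.20). Of the 8 selective members 6 were thus called higher (75.0%, against 17.7% of all genes) and 0 lower in limma (13.2% of all genes). At an unadjusted p under 0.05 there were 6 of the 8, all of them higher. Over all 6355 genes tested there were 2877, 1574 of them higher. The median log2 fold of the 8 was 1.17. Set against the NR mean, CR A alone gave 1.04 and CR B alone 1.22.

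**Figure D3:**
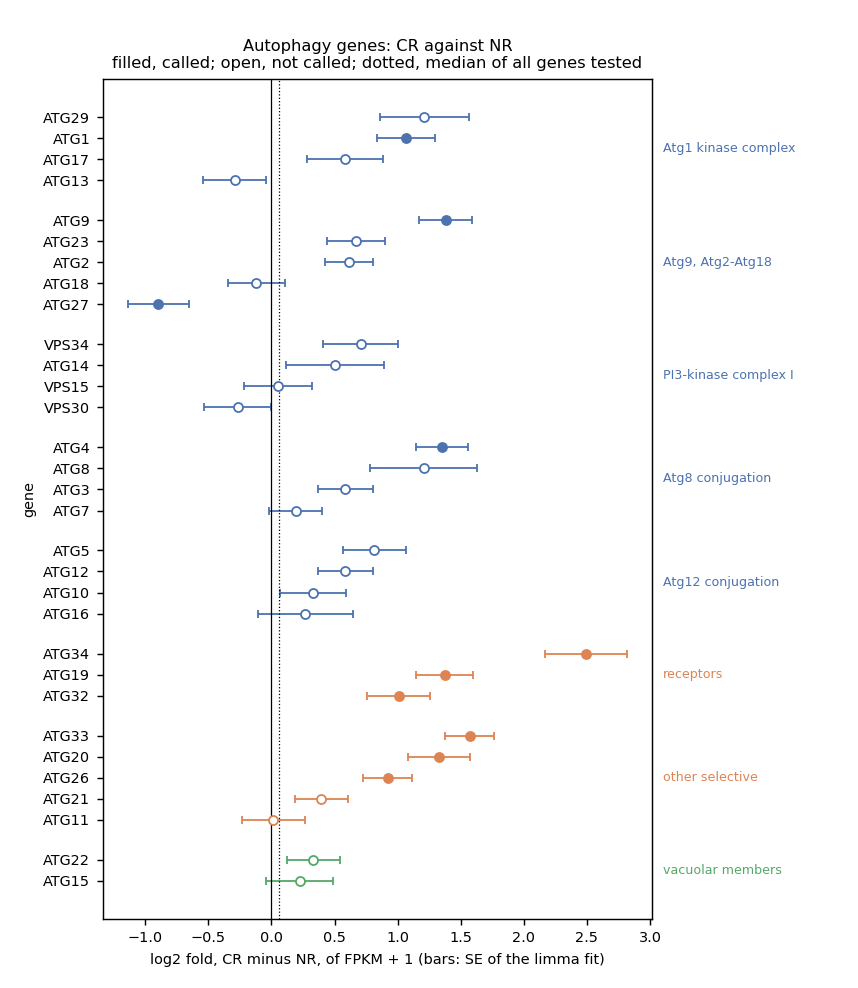
Log2 fold of FPKM + 1 (CR minus NR) with the SE of the limma fit for the 31 autophagy genes, grouped by role, filled where the adjusted p was under 0.05. The dotted line is the median of all genes tested, 0.06. Filled points are 3 of 3 receptors, 3 of 5 other selective factors, 4 of 21 core genes including the lower ATG27, and neither of the vacuolar genes. Over all genes tested, 30.9% were called in either direction.

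The core machinery was grouped as serving bulk and selective autophagy alike. It also holds ATG17, the scaffold of the starvation complex, and ATG29, whose product binds Atg17. Of its 21 genes 3 rose (14.3%, against 17.7% of all genes) and 1 fell (4.76%, against 13.2% of all genes). That is too few calls to tell the share from the background. At an unadjusted p under 0.05 there were 11 of the 21, 10 of them higher. Over all 6355 genes tested there were 2877, 1574 of them higher. Both CR libraries lay above both NR libraries for 13 of the 21, where 39.2% of all genes did so. The median log2 fold was 0.58, and CR A alone gave 0.33 and CR B alone 0.79. Whether the selective and core groups differ was not tested.

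In the Atg1 kinase complex, the kinase gene ATG1 rose. It lies on chromosome VII, 160065 to 162758, and had 43.7 and 32.3 FPKM in CR A and CR B, against 17.2 and 17.7 FPKM in the NR libraries (log2 fold 1.07, SE 0.23, adjusted p = 0.025), a call lost with no filter on low values (adjusted p = 0.057). Its regulatory partner ATG13, whose product TORC1 phosphorylates, had 100.2 and 72.9 FPKM in CR, against 94.9 and 116 FPKM in NR, with overlapping groups (log2 fold -0.29, adjusted p = 0.40). The ratio of ATG1 to ATG13 was 0.436 and 0.443 in CR A and CR B, against 0.181 and 0.152 in NR A and NR B. ATG13 was the more abundant of the pair in all 4 libraries. ATG17, the scaffold of the starvation complex, had a log2 fold of 0.58 (adjusted p = 0.19). ATG29, whose product binds Atg17, had 149.9 and 294 FPKM in CR, against 87.8 and 92.6 FPKM in NR, and was not called (log2 fold 1.21, SE 0.35, adjusted p = 0.053). With the replicate letter as a block it was (adjusted p = 0.032). Its row overlaps that of SET6, which rose (log2 fold 1.29, adjusted p = 0.021), and fragments of the overlap cannot be assigned here.

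Among the genes that bring membrane, ATG9 rose and ATG27 fell. ATG9 encodes the membrane protein of the vesicles that seed the autophagosome, and it lies on chromosome IV, 184925 to 187918. It had 34.6 and 41.0 FPKM in CR A and CR B, against 14.6 and 13.1 FPKM in the NR libraries (log2 fold 1.38, SE 0.21, adjusted p = 0.012). ATG27, whose product helps Atg9 vesicles to travel, lies on chromosome X, 89282 to 90097. It had 87.3 and 63.2 FPKM in CR, against 148 and 131 FPKM in NR, and fell by 0.90 on the log2 scale (SE 0.24, adjusted p = 0.043), a call lost with no filter on low values (adjusted p = 0.073). Both CR libraries lay above both NR libraries for ATG9 (39.2% of all genes) and below them for ATG27 (33.8% of all genes). The 2 genes thus moved in opposite directions. The ratio of ATG9 to ATG27 was 0.397 and 0.649 in CR A and CR B, against 0.0984 and 0.1005 in NR A and NR B.

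The remaining genes of this step were not called. ATG23, a further factor of Atg9 transport, had a log2 fold of 0.67 (adjusted p = 0.079) and the lipid transfer protein gene ATG2 one of 0.61 (adjusted p = 0.062). Each had both CR libraries above both NR libraries, where 39.2% of all genes did so. ATG18, the phosphoinositide-binding partner of Atg2, had 38.0 and 28.1 FPKM in CR, against 37.0 and 34.3 FPKM in NR (log2 fold -0.12, adjusted p = 0.71), and its groups overlapped.

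None of the 4 members of the phosphatidylinositol 3-kinase complex I was called in limma, where 30.9% of all genes were. An unadjusted p under 0.05 was found for 0 of the 4, and for 2877 of all 6355 genes tested. The catalytic gene VPS34 had 42.0 and 71.9 FPKM in CR A and CR B, against 33.7 and 32.8 FPKM in the NR libraries (log2 fold 0.71, SE 0.30, adjusted p = 0.13). VPS15, its regulatory partner, had 18.7 and 29.4 FPKM in CR, against 22.7 and 22.6 FPKM in NR (log2 fold 0.05, SE 0.27, adjusted p = 0.89). VPS30, the yeast homolog of Beclin 1, had 21.1 and 28.5 FPKM in CR, against 34.7 and 25.4 FPKM in NR (log2 fold -0.27, SE 0.26, adjusted p = 0.47). Only VPS34 of these had both CR libraries above both NR libraries, where 39.2% of all genes did so. ATG14, the subunit that directs the kinase to autophagy, had 69.9 and 152 FPKM in CR, against 68.1 and 77.1 FPKM in NR, so that CR A lay within the NR values and CR B above them (log2 fold 0.50, SE 0.39, adjusted p = 0.36). VPS34, VPS15 and VPS30 also serve complex II of vacuolar protein sorting, where VPS38 takes the place of ATG14, and VPS38 was not called either (log2 fold 0.14, adjusted p = 0.70).

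ATG8 was the most abundant of the 31 in every library. It encodes the ubiquitin-like protein that is joined to phosphatidylethanolamine and lies on chromosome II, 80378 to 80731, minus strand. It had 843 and 1832 FPKM in CR A and CR B, against 484 and 599 FPKM in the NR libraries. Both CR libraries were above both NR libraries, but they differed from each other by more than CR A did from NR B. The log2 fold of 1.21 (SE 0.42, adjusted p = 0.083) was not called. It was 1.77 and called without CR A (adjusted p = 9.3e-04), where the spread comes from the NR pair alone, and 0.65 without CR B (adjusted p = 0.052). ATG4, the protease that trims Atg8 and frees it from the lipid, rose, with 98.4 and 90.2 FPKM in CR, against 32.7 and 40.4 FPKM in NR (log2 fold 1.35, SE 0.21, adjusted p = 0.012). The ratio of ATG8 to ATG4 was 8.57 and 20.3 in CR A and CR B, against 14.8 and 14.8 in NR A and NR B, so the NR ratio lay between those of the CR libraries. ATG3 and ATG7, which encode the conjugating and activating enzymes of Atg8, were not called, with log2 folds of 0.58 (adjusted p = 0.098) and 0.19 (adjusted p = 0.51).

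In the second conjugation system, which joins Atg12 to Atg5, none of 4 genes was called in limma, where 30.9% of all genes were. An unadjusted p under 0.05 was found for 2 of the 4, and for 2877 of all 6355 genes tested. ATG5, the target of Atg12, had a log2 fold of 0.82 (adjusted p = 0.0596) and ATG12 one of 0.59 (adjusted p = 0.0997). Each had both CR libraries above both NR libraries, where 39.2% of all genes did so. ATG10, which encodes the conjugating enzyme, was among the lowest of the 31, at 11.9 and 16.0 FPKM in CR, against 9.63 and 12.1 FPKM in NR. ATG16, whose product binds the conjugate, had 125 and 261 FPKM in CR, against 151 and 149 FPKM in NR, with CR A below and CR B above the NR values (log2 fold 0.27, adjusted p = 0.61). The row of ATG16 overlaps that of YMR158W-B.

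The 2 vacuolar members were not called in limma, where 30.9% of all genes were. An unadjusted p under 0.05 was found for 0 of the 2, and for 2877 of all 6355 genes tested. ATG15, the gene of the lipase that opens autophagic bodies, had 35.0 and 23.2 FPKM in CR, against 25.9 and 22.8 FPKM in NR (log2 fold 0.22, SE 0.26, adjusted p = 0.54), and the groups overlapped. ATG22, the gene of an exporter of amino acids from the vacuole, had 44.7 and 35.7 FPKM in CR, against 31.4 and 31.7 FPKM in NR (log2 fold 0.33, SE 0.21, adjusted p = 0.27), and the groups did not overlap.

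The CR libraries differed from each other in these genes. CR B was higher than CR A for 22 of the 31 (71.0%), but for 38.1% of all genes tested. The median difference, CR B minus CR A, was 0.38 for the autophagy genes and -0.15 for all genes on the log2 scale. It was 0.40 for the core machinery, 0.29 for the selective members and 0.69 for the kinase complex of VPS34, while both vacuolar genes were lower in CR B. Over the 31 genes the Spearman correlation of gene length with this difference was -0.31, and over all 6355 genes it was -0.15. The genes share the same 2 libraries, so these are descriptions. CR B is also the library with 87.2% of its summed FPKM in rows without a gene ID, and the part of that in the difference was not tested.

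**Figure D4:**
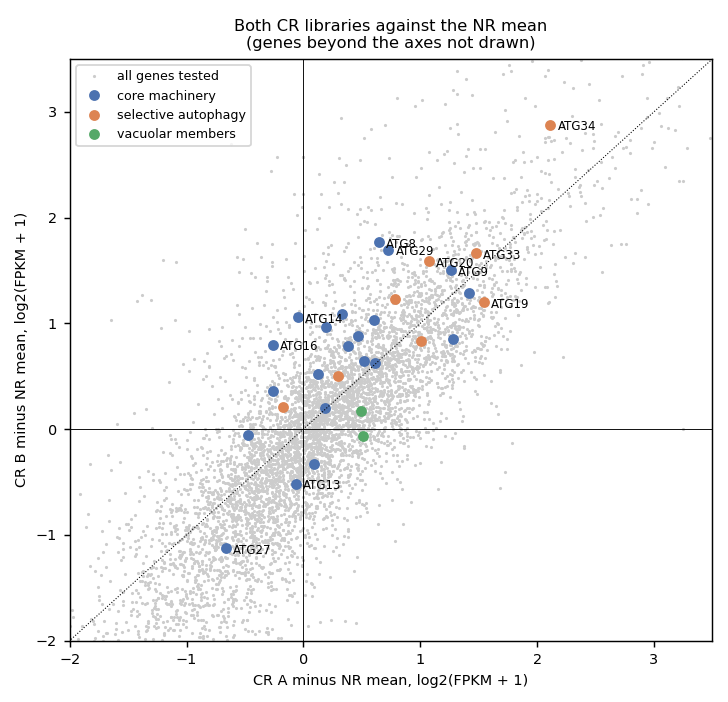
CR A and CR B, each minus the NR mean of log2(FPKM + 1), for the 31 autophagy genes (coloured by group) over all genes tested (grey), with the line of equality dotted. Of the autophagy genes 22 lie above the line, ATG11, ATG14, ATG16 and VPS15 lie below 0 in CR A and above 0 in CR B, and ATG13, ATG27 and VPS30 are below 0 in both.

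A further 10 genes carry an ATG name in RefSeq R64 but another name in the table, and so fall outside the naming rule. Of these 5 rose and 0 fell in limma (all genes, 17.7% and 13.2%), with a median log2 fold of 1.09. At an unadjusted p under 0.05 there were 6 of the 10, all higher. Over all 6355 genes tested there were 2877, 1574 of them higher. These 5 calls, too, were lost without NR A and without NR B. The 10 included 4 further receptors, those of peroxisomes, of both parts of the endoplasmic reticulum and of glycogen. ATG36, the receptor of peroxisomes (listed as YJL185C), had 88.2 and 119 FPKM in CR, against 45.9 and 44.6 FPKM in NR (log2 fold 1.16, SE 0.23, adjusted p = 0.020). ATG39, the receptor of the nuclear envelope and perinuclear endoplasmic reticulum (YLR312C), had 107 and 107 FPKM in CR, against 38.4 and 37.4 FPKM in NR (log2 fold 1.47, SE 0.18, adjusted p = 0.0081). ATG40, the receptor of cortical endoplasmic reticulum (YOR152C), had 28.9 and 26.6 FPKM in CR, against 18.6 and 23.1 FPKM in NR, and was not called (log2 fold 0.40, adjusted p = 0.20). The glycogen receptor gene ATG45 (YIL024C) had 54.3 and 24.2 FPKM in CR, against 15.3 and 17.2 FPKM in NR, and was not called either (log2 fold 1.11, SE 0.40, adjusted p = 0.089). Counted with ATG19, ATG32 and ATG34, 5 of 7 receptors rose, where 17.7% of all genes did. All 7 had both CR libraries above both NR libraries, where 39.2% of all genes did so.

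Among the other 6 the sorting nexin gene SNX4 (ATG24), the partner of ATG20, had 178 and 228 FPKM in CR, against 54.2 and 52.6 FPKM in NR (log2 fold 1.89, SE 0.22, adjusted p = 0.0067). ICY2 (ATG41), whose product acts with Atg9, had 187 and 279 FPKM in CR, against 54.2 and 39.3 FPKM in NR (log2 fold 2.28, SE 0.29, adjusted p = 0.0084). ATG42 (YBR139W), a vacuolar carboxypeptidase gene, had 338 and 340 FPKM in CR, against 151 and 172 FPKM in NR (log2 fold 1.07, SE 0.20, adjusted p = 0.019). All 3 rose, and each had both CR libraries above both NR libraries, where 39.2% of all genes did so. CIS1 (ATG31), a partner of ATG17 and ATG29, had a log2 fold of 0.22 (adjusted p = 0.42), and ATG38, the remaining gene of the VPS34 complex (YLR211C), one of 0.77 (adjusted p = 0.12). The mitochondrial fission gene ATG44 (YIL156W-B) was the most abundant of the 10 and nearly level, at 1982 and 1889 FPKM in CR, against 1912 and 1922 FPKM in NR, in a row that overlaps YIL156W-A.

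Counts for genes that act with the autophagy machinery, in 6 short lists, are to be read against the 17.7% of all genes called higher and 13.2% called lower. Every call named among them was lost without NR A and, save that of TPK3, without NR B. Of 4 hydrolase genes whose products the Cvt pathway carries, 2 rose. AMS1, the alpha-mannosidase gene and cargo of Atg19 and Atg34, had 45.3 and 50.6 FPKM in CR, against 11.8 and 13.2 FPKM in NR (log2 fold 1.86, SE 0.20, adjusted p = 0.0059). LAP3, a cysteine aminopeptidase gene, had a log2 fold of 1.18 (adjusted p = 0.016). The main Cvt cargo gene LAP4, known as APE1, had 265 and 156 FPKM in CR, against 224 and 242 FPKM in NR (log2 fold -0.19, adjusted p = 0.65), and its groups overlapped. Of 4 vacuolar protease genes 1 rose, CPS1 (log2 fold 1.09, adjusted p = 0.021).

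Of 8 genes for Rab, sorting nexin and propeller partners 4 rose and 0 fell in limma (all genes, 17.7% and 13.2%). An unadjusted p under 0.05 was found for 4 of the 8, and for 2877 of all 6355 genes tested. This list also holds SNX4, given above. The propeller gene HSV2, a relative of ATG18 and ATG21, had 169 and 168 FPKM in CR, against 61.7 and 69.4 FPKM in NR (log2 fold 1.35, adjusted p = 0.011). SNX41, a further sorting nexin gene, had a log2 fold of 1.04 (adjusted p = 0.040). Of 15 genes for fusion with the vacuole 2 rose and 1 fell (13.3% and 6.67%, against 17.7% and 13.2% of all genes). VTI1, a SNARE gene, rose with a log2 fold of 1.14 (adjusted p = 0.021), and the Rab gene YPT7 with one of 0.78 (adjusted p = 0.044), while VPS41, of the HOPS tethering complex, fell by 0.97 on the log2 scale (adjusted p = 0.036). The calls of YPT7, SNX41 and VPS41 were lost with no filter on low values, those of YPT7 and SNX41 also under median scaling, and that of VPS41 under scaling to a common sum. YPT7 lost its call under quantile normalization, with the replicate block and with no intensity trend as well.

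Of 12 regulators of ATG gene expression 1 rose (8.33%, against 17.7% of all genes). It was GIS1, a zinc finger gene related to RPH1 (110.0 and 84.0 FPKM in CR, against 44.7 and 37.3 FPKM in NR, log2 fold 1.22, adjusted p = 0.019). UME6, whose product represses ATG8, had a log2 fold of 0.71 (adjusted p = 0.060) and was not called. The list of upstream kinases also holds genes for their partner subunits, BCY1 among them. Of its 13 genes 4 rose and 1 fell (30.8% and 7.69%, against 17.7% and 13.2% of all genes). Among them were the protein kinase A genes TPK2 (log2 fold 1.40, adjusted p = 0.010), BCY1 (1.24, adjusted p = 0.015) and, as the 1 that fell, TPK3 (-2.21, adjusted p = 0.0057).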

How the data were processed

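Total RNA of 4 yeast libraries was measured, 2 in CR and 2 in NR. The authors deposited 1 table of FPKM, and all 4 value columns were matched to samples by name. CASAVA 1.8.2, Bowtie (version not given) and Cufflinks 2.0.2 with build sacCer2 were used, per the submitters' processing notes. The sources used here name no settings and say nothing of strand or multiple matches. All 31 rows of the rule lay at their R64 position once 1 was added to the start, each an open reading frame of 1 coding exon with 100.0% of its 32-nt stretches unique in R64, and positions are printed as R64 ones that count from 1.

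Tables were handled in Python 3.11.15 (pandas 2.3.3, NumPy 2.4.6, plots in matplotlib 3.10.9). The fit was limma 3.58.1 in R 4.3.3 with an intensity trend and no covariate, on log2(FPKM + 1) of the gene rows whose mean reached 1 FPKM. On simulated data the fit returned the size of the changes made, and no change that it called had the wrong direction. It called few of them, and almost none of the smaller ones. Far fewer genes were changed there than were called here, so that share does not carry over to these data. The 14 alternatives were other pseudocounts, filters and scalings, the replicate letter as a block, no trend, each library left out and rows that overlap no other. Replicate letters were not taken to pair libraries. All genes of the rule were named, and from each list of partner genes up to 3 called genes, those of smallest adjusted p, or the most abundant where no gene was called. UME6, LAP4, VPS38 and the neighbours of ATG34 were added after their values were seen. The genes and lists were chosen with earlier results of these data known. Each limma p-value sets the difference between CR and NR against the spread of the replicates within the groups. That spread is drawn toward the trend over all genes.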

Additional observations from a re-analysis of the deposited data

How the results depend on the processing

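Among the autophagy genes, 9 were called higher and 1 lower. Leaving out 1 library gave 0 to 19 higher and 0 to 1 lower, against 72 to 1632 higher and 44 to 1656 lower among all genes, since the spread then comes from fewer libraries and, where a pair is broken, from the other pair alone. With no filter on low values 6 autophagy genes were higher and 0 lower (ATG1, ATG26, ATG27 and ATG32 lost their calls, at adjusted p of 0.057, 0.0503, 0.073 and 0.057, and 15 of the 31 had an unadjusted p under 0.05), and 464 genes in all were lower. Without CR A the calls of ATG3, ATG5, ATG8, ATG12, ATG14, ATG16, ATG17, ATG23, ATG29 and VPS34 were gained. With the replicate block 10 autophagy genes were higher and 1 lower, and 1150 and 986 of all genes. ATG29 was the call gained, and the block otherwise took only that of YPT7 among the genes named. Deviations of libraries with the same letter correlated at 0.083, which does not show that the letters pair them.

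The median log2 fold of the core genes was 0.58 as deposited, 0.46 under median scaling, 0.45 after quantile normalization and 0.33 to 0.79 with a library left out. That of the selective members was 1.17, with 1.06 at a pseudocount of 5, 1.05 under median scaling, 1.01 among rows that overlap no other and 1.04 to 1.22 with a library left out. The vacuolar median stayed above 0, at 0.06 to 0.50 with a library left out. Median scaling moved the median of all genes by -0.12 and the share of higher calls among all calls to 45.2%, against 57.4% as deposited. Among the genes with an ATG name or in the rule, signs turned for 7, none of them called as deposited, and the cause was not tested. Under median scaling the log2 fold was -0.10 for ATG11, -0.068 for VPS15 and -0.11 for YIL156W-B. With a library left out it ranged from -0.18 to 0.21 for ATG11, -0.050 to 1.06 for ATG14, -0.26 to 0.79 for ATG16, -0.33 to 0.091 for ATG18, -0.26 to 0.36 for VPS15, -0.063 to 0.51 for ATG15 and -0.021 to 0.048 for YIL156W-B. Depth is unknown, so no limit from it can be given.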
